A study of Oryza sativa Japonica Group with 4 samples.

Results

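*APR-like1*, *SAT4* and *GRXS5* are rice genes that carry the names of neighbouring steps of sulfur metabolism, namely sulfate reduction, cysteine synthesis and glutathione-dependent redox control. They were chosen by their increase in roots after ammonium nitrate on the arrays described here, so that the increase itself is given as a description, without a test. The 3 genes were found by name or synonym in the gene tables, and all 5 of their probe sets on all 4 arrays are reported, out of 17905 genes with a probe set and 57194 rice probe sets. *APR-like1* (LOC4343348, chromosome 7) is read by 3 probe sets, *SAT4* (LOC4331941, chromosome 3) by 1 and *GRXS5* (LOC4326324, chromosome 1) by 1.

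Plants take up sulfate, activate it with ATP to adenosine 5′-phosphosulfate (APS), and reduce APS to sulfite with APS reductase (APR), which draws its electrons from glutathione. Sulfite reductase then forms sulfide with electrons of ferredoxin, the same carrier that serves nitrite reductase. Serine acetyltransferase (SAT) makes *O*-acetylserine, the carbon and nitrogen skeleton onto which *O*-acetylserine (thiol) lyase places sulfide to give cysteine, so that this step joins sulfur assimilation to nitrogen assimilation. Cysteine feeds glutathione and methionine synthesis, and glutaredoxins are small proteins that use glutathione to reduce disulfides or to remove glutathione from proteins. The annotation gives LOC4343348 both the name *APR1*, that of an APS reductase, and the names *APR-like1* and *OsAPRL1*. In Arabidopsis, APR-like proteins are thioredoxin-like proteins without the reductase domain of APR. Which of the names fits the protein was not examined, and the gene is called *APR-like1* here.

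The roots came from seedlings of the japonica rice cultivar TNG67, grown in hydroponic solution without N and treated at 17 days of age. Both groups were therefore N-starved, and for the last 30 min they were either kept without N (−N, 0 mM ammonium nitrate) or given 1.43 mM ammonium nitrate (+N), which supplies both N forms at once. Each group had 2 biological replicates with 1 Affymetrix Rice Genome Array each. Whole roots were used, so that a higher level per cell and a larger share of cells with the transcript cannot be told apart.

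The arrays differed in scale. The median intensity, the brightness of a probe set on a linear scale, was 17.8 on the −N array and 17.1 on the +N array of replicate 1, against 25.2 and 25.4 on those of replicate 2. Of the root markers looked up, 7 were measured, and the summed intensity of these was 8889 and 14189 on the −N arrays and 10145 and 12321 on the +N arrays. The silicon transporter gene *Lsi1*, which is active in roots, had 7224 or more on every array, and *OsSCR1*, a regulator of root patterning, had between 10.9 and 16.2. The 3 measured leaf photosynthesis markers were not absent, and their summed intensity was 8527 and 13760 in −N and 11261 and 12844 in +N, mostly from *CAB2R*. In both sums the +N arrays lay between the −N arrays, but single markers differed within a replicate. The leaf markers *rca* and *OsrbcS* had 354 and 304 in −N and 1039 and 878 in +N of replicate 1, and 1241 and 1303 in −N and 895 and 873 in +N of replicate 2. The root markers *Lsi2* and *NRAMP5* had 596 and 168 in −N and 768 and 251 in +N of replicate 1, and 1486 and 573 in −N and 721 and 290 in +N of replicate 2. These markers thus moved in opposite directions in the replicates, and the part of such differences in the results below was not tested.

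*APR-like1* was about 3 times as bright in +N as in −N roots. Its probe set with the highest mean, Os.19519.1.S1_s_at, read 279 and 302 on the −N arrays of replicates 1 and 2, and 920 and 1028 on the +N arrays. The groups did not overlap, and the lower +N array was 3.04 times the higher −N array. On the log2 scale the means were 8.18 ± 0.08 (SD, n = 2) and 9.93 ± 0.11 (SD, n = 2), a log2 fold change of 1.74 with a standard error (SE) of 0.16, or 3.35-fold. The ratio was 3.29 for the replicate 1 pair of arrays and 3.40 for the replicate 2 pair. While the median array brightness of replicate 2 was 1.42 times that of replicate 1 in −N and 1.49 times in +N, this probe set was 1.08 and 1.12 times as bright.

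A probe set of *APR-like1* from another sequence cluster of the array design gave nearly the same pattern. The gene was chosen by this contrast with that probe set included, so nothing is read from the likeness. Os.12165.1.S1_at had 238 and 229 in −N and 812 and 734 in +N roots, again without overlap. Its log2 fold change was 1.72 with a standard error of 0.15, or 3.30-fold, and the ratio was 3.41 in replicate 1 and 3.20 in replicate 2. The third probe set, Os.19519.1.S1_at, from the same sequence cluster as Os.19519.1.S1_s_at, did not show the increase. Its intensities were 16.6 and 18.5 in −N and 13.6 and 14.9 in +N, below the median of each array, with a log2 fold change of -0.30 ± 0.16 (SE). The *APR-like1* increase was thus read by both bright probe sets and not by the dim one, and the mean over the 3 probe sets had a log2 fold change of 1.06. The suffix s_at of an Affymetrix probe set marks probes that match more than 1 transcript, and which transcripts these are was not examined.

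*SAT4*, which encodes a serine acetyltransferase, was also about 3 times as bright in +N roots. Its only probe set, OsAffx.25032.1.S1_s_at, had intensities of 319 and 227 in −N and of 825 and 835 in +N roots. The +N arrays lay close together and both lay above both −N arrays, with the lower +N array at 2.58 times the higher −N array. The spread was in the −N group, where the mean log2 intensity was 8.07 ± 0.35 (SD, n = 2), against 9.70 ± 0.01 (SD, n = 2) in +N. The log2 fold change was 1.62 with a standard error of 0.23, or 3.08-fold, and the ratio was 2.58 in replicate 1 and 3.68 in replicate 2. The −N array of replicate 2 was the dimmer for *SAT4*, at 0.712 times that of replicate 1, although its median over all probe sets was the higher. This probe set also carries the suffix s_at, so that part of its signal can come from a related transcript.

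*GRXS5*, which encodes a glutaredoxin, was about 2 times as bright in +N roots. Its probe set Os.11657.1.S1_at had intensities of 2623 and 2513 in −N and of 5355 and 5289 in +N roots. The groups did not overlap, and the lower +N array was 2.02 times the higher −N array. The mean log2 intensity was 11.33 ± 0.04 (SD, n = 2) in −N and 12.38 ± 0.01 (SD, n = 2) in +N, a log2 fold change of 1.05 with a standard error of 0.14, or 2.07-fold. The ratio was 2.04 in replicate 1 and 2.10 in replicate 2. Ranked by log2 fold change among the 57194 probe sets, *GRXS5* was at place 345, *SAT4* at 124, and the bright probe sets of *APR-like1* at 101 and 106. Across all probe sets 266 were called higher in +N, which is 0.465% of those tested, where a gene or probe set was called if it changed by 2-fold or more and its limma p was under 0.05 before adjustment. Since the genes were chosen by this contrast, nothing is read from their places.

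**Figure D1:**
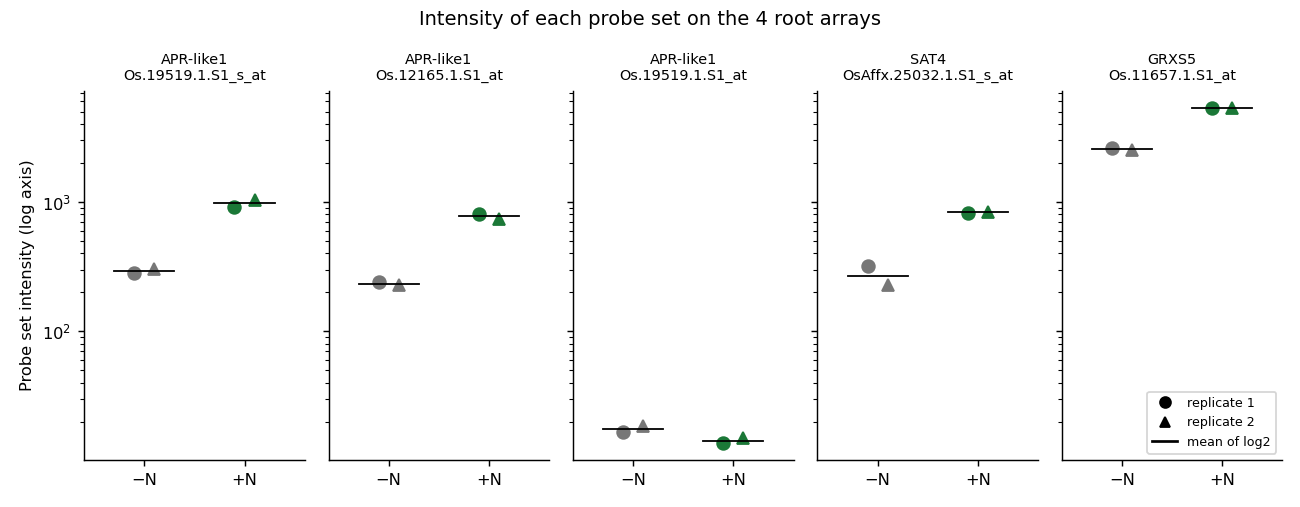
Probe set intensity (log axis) of *APR-like1* (3 probe sets), *SAT4* and *GRXS5* on the −N (grey) and +N (green) arrays of replicate 1 (circles) and replicate 2 (triangles), with lines at the mean of the log2 values of each group. Both +N arrays lie above both −N arrays in every panel except that of the dim probe set of *APR-like1*, where they lie below, and brightness is not comparable between panels because probe sets differ in sensitivity.

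Other genes of the same and the neighbouring pathways were then examined. Lists of sulfate activation and reduction, cysteine synthesis, glutathione synthesis and reduction, glutathione *S*-transferases, glutaredoxins, thioredoxins with their reductases, and methionine and *S*-adenosylmethionine synthesis held 59 other measured genes, each represented by its probe set with the highest mean. Of these, 0 were called higher and 0 lower in limma. Over all 17905 genes 1.01% were called higher and 0.0223% lower, so that a share of 0 in 59 is near this background. Without the 2-fold requirement, 1 of the 59, *SAT1*, had an unadjusted p under 0.05, a threshold that 2.20% of all genes passed. After Benjamini-Hochberg adjustment 0 of all 57194 probe sets passed, so that the adjusted values set no gene apart. The p-values given below are those of limma before adjustment. The median log2 fold change of the 59 genes was 0.10, against 0.02 over all genes, and their values ran from -0.34 to 0.94. Both +N arrays lay above both −N arrays for 8 of the 59 genes (13.6%), against 9.23% of all genes, and below for 0, against 5.12%. Sulfate transporter genes, ATP sulfurylase, sulfite reductase and the enzymes of serine synthesis were not matched by name and were not analysed here.

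Of the other genes with APR-like names, 4 were measured and 0 were called. They made up the rest of the list of sulfate activation and reduction, and whether they act in that pathway was not examined. *APRL3* had intensities of 858 and 1194 in −N and 990 and 1215 in +N roots, and its log2 fold change was 0.12 ± 0.26 (SE, unadjusted p = 0.680). *APRL5* had 449 and 804 in −N and 514 and 903 in +N, a log2 fold change of 0.18 ± 0.47 (SE, unadjusted p = 0.724). For both genes the replicate 2 arrays were the brighter in each group, and the groups overlapped. With the replicate number as a block in the limma fit, their standard errors were 0.10 (unadjusted p = 0.356) and 0.08 (unadjusted p = 0.142). *APRL2* had 565 and 618 in −N and 441 and 716 in +N, a log2 fold change of -0.07 ± 0.31 (SE, unadjusted p = 0.826). *APRL4* had 1195 and 1406 in −N and 998 and 1249 in +N, a log2 fold change of -0.22 ± 0.21 (SE, unadjusted p = 0.368). Their median log2 fold change was 0.02. The difference between *APR-like1* and the other genes was not tested, because *APR-like1* was chosen by its increase.

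In cysteine synthesis *SAT1*, a further serine acetyltransferase gene, came closest to *SAT4*. Its brighter probe set had intensities of 378 and 404 in −N and of 952 and 594 in +N roots. The groups did not overlap, but the +N arrays differed from each other, and the log2 ratio was 1.33 in replicate 1 and 0.56 in replicate 2. The log2 fold change was 0.94 ± 0.30 (SE, unadjusted p = 0.0437), or 1.92-fold, which is below the 2-fold threshold. After adjustment it did not pass, and neither did any other probe set on the array. This probe set has the suffix x_at, which marks probes that may bind unrelated or related transcripts as well, and on the other probe set of *SAT1* the log2 fold change was only 0.04 (unadjusted p = 0.869). In a fit that left out the +N array of replicate 2, *SAT1* had a value of 1.28 and was called (unadjusted p = 0.0219), where the lone +N array, the higher of the 2, is assumed to vary like the −N arrays.

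Of the remaining genes of cysteine synthesis, none had an unadjusted p under 0.05 in limma. *SAT2* had 107 and 159 in −N and 138 and 166 in +N roots, with a log2 fold change of 0.22 ± 0.28 (SE, unadjusted p = 0.488). *SAT5* had between 1185 and 1368 on all 4 arrays and a log2 fold change of 0.06 ± 0.16 (SE, unadjusted p = 0.750). The lyase genes, which act after the SAT enzymes, had log2 fold changes of 0.01 for *rcs3* ± 0.32 (SE, unadjusted p = 0.984) and of -0.03 for *rcs1* ± 0.59 (SE, unadjusted p = 0.959). The error of *rcs1* was the largest of this list in this fit, with 807 and 1910 in −N and 920 and 1602 in +N, the replicate 2 arrays being the brighter in both groups. With the replicate number as a block in the limma fit, its error was 0.17 (unadjusted p = 0.860), smaller than the 0.26 of *SAT1*.

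The glutaredoxin family was measured for 17 genes beside *GRXS5*, and 0 of them were called in limma. The letters C and S in these names refer to cysteine or serine at the second position of the active site pair. The median log2 fold change of the 17 genes was 0.07, and 15 of them lay within 0.3 of 0. *GRXS9* had the highest value, with 622 and 743 in −N and 882 and 1160 in +N roots. Its groups did not overlap, and its log2 fold change was 0.57 ± 0.23 (SE, unadjusted p = 0.0777), at 0.50 in replicate 1 and 0.64 in replicate 2. *GRXC7* had the lowest value, with 1158 and 837 in −N and 695 and 874 in +N, and a log2 fold change of -0.34 ± 0.26 (SE, unadjusted p = 0.278) that came from replicate 1 alone. *GRXC6*, with 4472 and 4088 in −N and 4840 and 5396 in +N, and *GRXS7*, with 535 and 560 in −N and 568 and 651 in +N, also did not overlap between the groups, with values of 0.26 (unadjusted p = 0.195) and 0.15 (unadjusted p = 0.407). Genes with both +N arrays above both −N arrays were thus 3 of 17, or 17.6%, against 9.23% of all genes.

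The other glutaredoxin genes had log2 fold changes closer to 0 than those of *GRXS9* and *GRXC7*. *GRXS3*, *GRXS12* and *GRXS2* had log2 fold changes of 0.29, 0.22 and 0.15, and *GRXS10*, *GRXS1*, *GRXS11* and *GRXS4* of 0.11, 0.08, 0.07 and 0.01. *GRXS6*, *GRXC8* and *GRXC1* had -0.04, -0.05 and -0.07. *GRXC10* and *GRXC15* were between 4.69 and 6.26 on all arrays, near the 5th percentile of all values (5.16), to which lower intensities were set, and had log2 fold changes of -0.11 and 0.05. *GRXC3*, also named *ROXY2* after a family that shapes anthers in Arabidopsis and rice, ran from 15.0 to 56.5 over the 4 arrays, which left a standard error of 0.86.

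**Figure D2:**
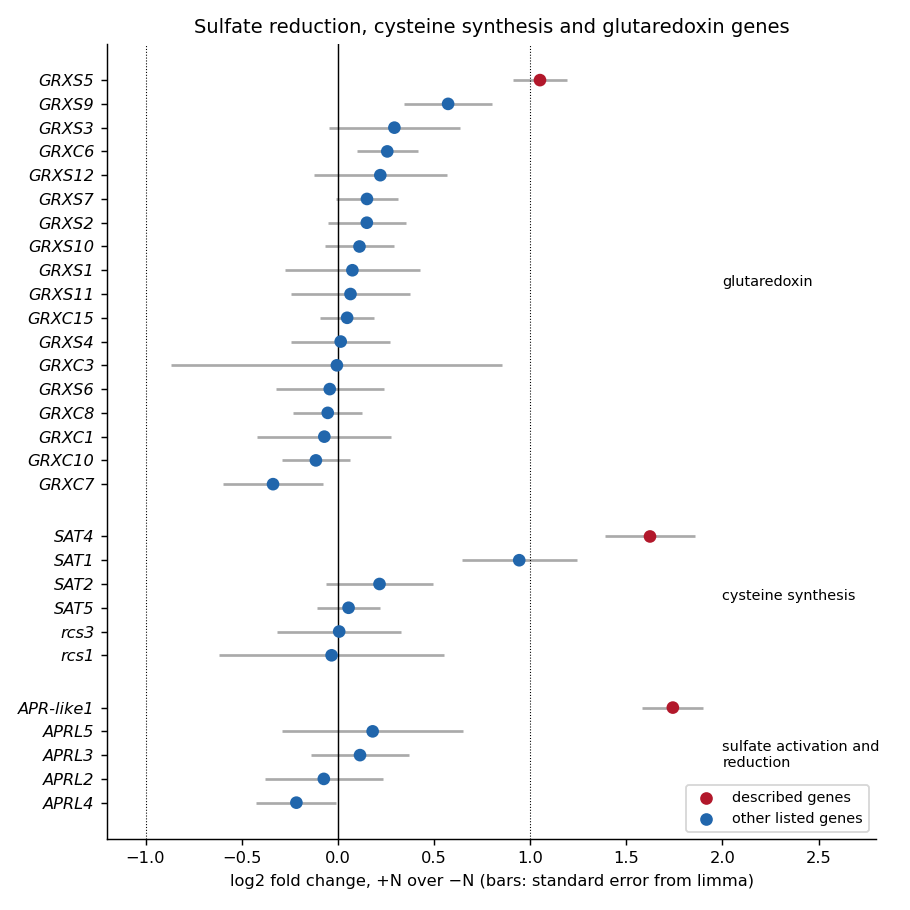
log2 fold change of +N over −N with its standard error from limma (bars) for the measured genes of the lists of sulfate activation and reduction, cysteine synthesis and glutaredoxins. *APR-like1*, *SAT4* and *GRXS5* are in red and the other genes in blue. In the first list the blue genes all have APR-like names, and whether they act in sulfate reduction was not examined. Dotted lines mark a 2-fold change, which *APR-like1* at 1.74, *SAT4* at 1.62 and *GRXS5* at 1.05 pass, and which *SAT1* at 0.94 does not reach.

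The listed genes of pathways that use cysteine and glutathione gave no called gene in limma. These lists were drawn by gene names and do not cover whole pathways. The paper reports sulfur metabolism and glutathione metabolism among the pathways enriched in its up-regulated genes. That result covers KEGG pathways and all of its up-regulated genes, and which genes it rests on was not examined. The counts here leave out *APR-like1*, *SAT4* and *GRXS5*, so they are no check of that enrichment. The glutathione genes *gcs*, which encodes the enzyme of the first step of glutathione synthesis, and *RGRC2*, which encodes glutathione reductase, were at -0.12 (unadjusted p = 0.761) and 0.10 (unadjusted p = 0.833) on the log2 fold change scale. Of 6 glutathione *S*-transferase genes, *GSTU6* had the largest value, 0.64 ± 0.41 (SE, unadjusted p = 0.212). It had 994 and 519 in −N and 979 and 1270 in +N, so that the ratio came from replicate 2, and in a fit that left out the −N array of replicate 1 it had 1.10 and was called (unadjusted p = 0.0498), with the lone −N array assumed to vary like the +N arrays. *GSTZ5* followed at 0.30 (unadjusted p = 0.359). Of 18 listed genes of thioredoxins and their reductases, the largest values were 0.43 for *OsTrxm5* (unadjusted p = 0.397) and 0.42 for *OsTrx20* (unadjusted p = 0.233). The median of the list was 0.15. The paper reports a ferredoxin-thioredoxin reductase gene among those rapidly up-regulated by ammonium nitrate in roots. No listed gene had a rise of the size given there. The list holds a gene named *FTR-B*, which stood at 0.09 ± 0.34 (SE, unadjusted p = 0.800) in log2 units. Whether *FTR-B* or another listed gene is the one in the paper was not examined, so the list does not speak for that gene. The replicates of *OsTrxm5* differed in sign, since its log2 ratio was 1.06 in replicate 1 and -0.20 in replicate 2. Of 7 genes of methionine and *S*-adenosylmethionine synthesis or use, *SAMDC*, which encodes the decarboxylase that leads to polyamines, had 0.36 (unadjusted p = 0.143) and *IDI2* 0.17 (unadjusted p = 0.802).

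**Figure D3:**
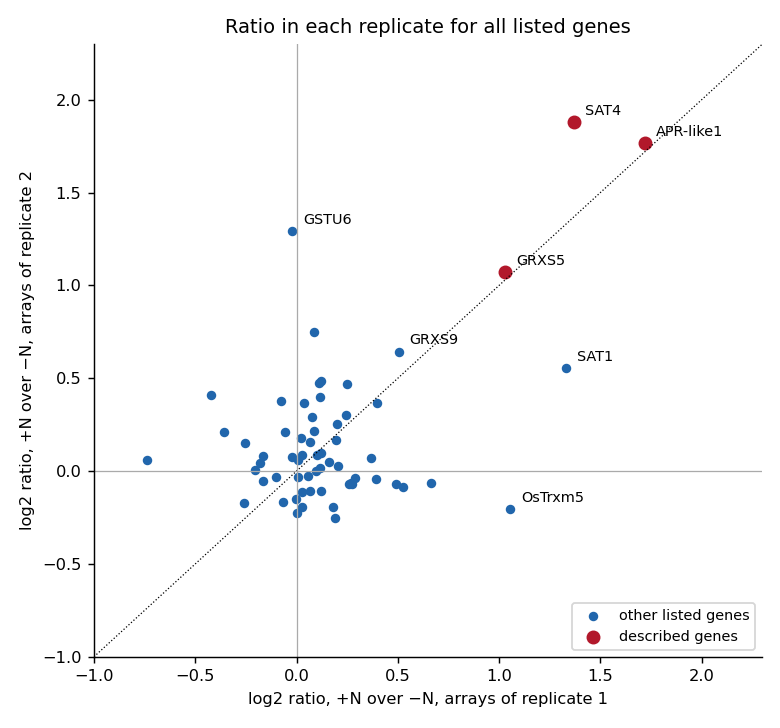
log2 ratio of +N over −N between the arrays of replicate 1 (horizontal) and of replicate 2 (vertical) for the 62 measured genes of all lists, with the line of equal ratios dotted. *APR-like1* (1.72 and 1.77) and *GRXS5* (1.03 and 1.07) lie on the line and *SAT4* (1.37 and 1.88) above it, while *SAT1*, *GSTU6* and *OsTrxm5* owe their values mostly to 1 replicate.

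The genes whose pattern over the 4 arrays was most like that of each of the 3 genes were sought among all probe sets paired with 1 gene. The measure was the root mean square difference of log2 intensities after subtraction of each probe set's mean, over 4 arrays, for which a small value means a similar pattern. For *APR-like1* the nearest were LOC4338034 at 0.06, LOC4330898 at 0.06 and LOC4330386 at 0.07, and the nearest with a name were *CIPK16*, a protein kinase gene, at 0.09, *DAO* at 0.17 and *OsWNK5*, also a kinase gene, at 0.17. *CIPK16* had intensities of 231 and 242 in −N and of 828 and 780 in +N roots. For *SAT4* the nearest were LOC4327292 at 0.07, LOC4327611 at 0.13 and *HAP3F*, a gene of an NF-Y transcription factor subunit, at 0.15. The next with a name was *APR-like1* itself, at 0.17 for its probe set Os.12165.1.S1_at and in place 5 of all genes, followed by *ARGOS*, a gene of organ size, at 0.21.

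For *GRXS5* the nearest were LOC4329181 at 0.02, LOC4347235 at 0.04 and LOC4342911 at 0.04, and the nearest with a name were *AOX1*, which encodes the alternative oxidase of mitochondria, at 0.04, the phosphatase gene *OsPP2C32* at 0.06 and *a7* at 0.08. *AOX1* had intensities of 457 and 451 in −N and of 902 and 876 in +N roots, and its log2 fold change was 0.97. LOC4327292, the gene nearest to *SAT4*, had 2955 and 2373 in −N and 8250 and 8527 in +N, with the same dimmer −N array of replicate 2 as *SAT4*. Between the 3 genes themselves the difference was 0.23 for *SAT4* and *APR-like1*, 0.36 for *GRXS5* and *APR-like1*, and 0.32 for *GRXS5* and *SAT4*, with the brightest probe set of each. With 4 arrays in 2 groups, genes with an equal treatment difference and a small spread come out near each other by construction.

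**Figure D4:**
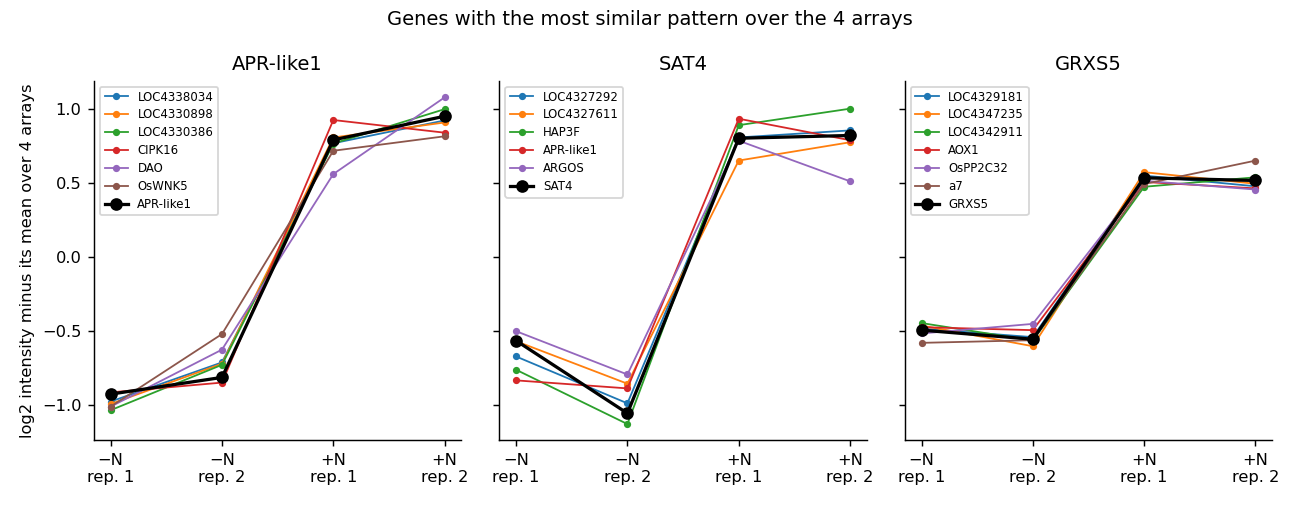
log2 intensity minus its mean over the 4 arrays for *APR-like1*, *SAT4* and *GRXS5* (black) and for the genes nearest to each (colours), on the −N and +N arrays of replicates 1 and 2. The lines of the nearest genes follow the black line within a root mean square difference of 0.02 to 0.21, and *SAT4* and its nearest genes are lower on the −N array of replicate 2 than on that of replicate 1.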

How the data were processed

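Per the labels, biotin-labelled cRNA of each root sample was hybridized to a GeneChip Rice Genome Array. The authors deposited 1 intensity per probe set and array, linear and not pooled over replicates. The submitters' notes name GCOS and RMA, and how the intensities were normalized is not stated. From 57381 probe sets, 187 controls were left out. Intensities below the 5th percentile (5.16) were set to it and log2 values were taken without further scaling. Linear models with group as the only term were fitted over 57194 probe sets with limma 3.58.1 in R 4.3.3, and p is unadjusted unless stated. The methods give the 2-fold and p thresholds and name no adjustment. Whether the biological replicates came from separate cultures is not stated, so p measures only the spread between these samples, and the number of arrays limits the precision. Exact permutation was not used, since 2 arrays against 2 allow no small p.

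Of the probe sets, 22436 are paired with 1 gene in the platform annotation. Names and chromosomes come from the RefSeq gene list for assembly ASM3414082v1, and no coordinates were taken from it. Lists were drawn by patterns of gene names, with 4 entries left out that name another protein, mix unrelated genes or have no probe set, and with names added that the first patterns missed. The genes and lists were chosen with earlier results of these data known. Named were the 3 genes and every measured gene of the lists of sulfate reduction, cysteine synthesis and glutaredoxins. Of the other lists, the genes called, the 2 largest changes and *FTR-B* were named. The 3 nearest genes and the nearest named genes by pattern were named as well. Sequence relatives and promoter motifs, foreseen in the design, were not analysed here. The fit was tested on data simulated with independent errors, so that test does not cover arrays of the same replicate number deviating together. Alternatives concerned scaling, floor, filter, variance model, fold threshold, the replicate block, the probe set of a gene and leaving out each array. Figures were drawn with matplotlib 3.10.9.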

Additional observations from a re-analysis of the deposited data

How the results depend on the processing

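The increases of *APR-like1*, *SAT4* and *GRXS5* kept their direction under every alternative run. The genes were chosen by this contrast, and their groups did not overlap on the probe sets used. Leaving out an array could therefore not reverse the direction, and nothing is read from its being kept. Leaving out each array in turn gave log2 fold changes from 1.66 to 1.82 for *APR-like1*, from 1.38 to 1.87 for *SAT4* and from 1.02 to 1.08 for *GRXS5*. The value of *APR-like1* fell to 1.06 with the mean over its probe sets, because the dim probe set enters with equal weight. Of the 59 other listed genes, the number called stayed at 0 under all alternatives except a 1.5-fold threshold, which called 1 (*SAT1*), and leaving out an array, which called from 0 to 1 (*SAT1* without the +N array of replicate 2, *GSTU6* without the −N array of replicate 1).

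Over all probe sets, 266 were called higher and 8 lower, and 0 had a p under 0.05 after Benjamini-Hochberg adjustment. The number called lower was 3 with a floor at the 20th percentile, 3 with an offset of 16, 35 after median centring, 14 after quantile normalization, 18 without dim probe sets, and 15 with the replicate number as a block, which called 294 higher. An ordinary linear model with pooled variance called 171 higher and 0 lower. A 1.5-fold threshold called 517 and 56, and a 3-fold threshold 110 and 0. Leaving out each array gave from 159 to 543 higher and from 5 to 413 lower. The cause was not tested, apart from fewer arrays or another threshold by construction. Arrays of the same replicate number deviated together (correlation 0.56 over probe sets, 2 pairs), but the labels do not say that the number marks a shared culture or day. The block left the log2 fold changes as they were and called 0 of the 59 listed genes. Without the 2-fold requirement, 2 of the 59 had an unadjusted p under 0.05 with the block, *GRXS9* (unadjusted p = 0.0163) and *OsTrx15* (unadjusted p = 0.0316), against 7.66% of all genes, and *SAT1* had an unadjusted p = 0.0519.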
